A study of Arabidopsis thaliana with 3 samples.

Results

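The comparison described here is that of wild-type Arabidopsis thaliana rosette leaves after rewatering with wild-type leaves under water stress. It rests on the wild-type channel of 2 of the 3 arrays in the study, 1 channel a side, out of 6 channels in all. By the study's design text and the recovery sample's own labels, the recovery leaves came from plants that had gone 8 days without water and were then watered normally for 24 h, whereas the protocols given for normal growth and water stress speak of 5 days alone. The water stress leaves were taken at day 5. If the 8 days are right, they are not the state of the recovery plants just before water returned. A wild-type channel from normal growth is given beside them as a level. All plants were 5 weeks old, of ecotype Col-0, kept at 22 °C under a day of 16 h and a night of 8 h, and differed in watering alone as far as the labels say. Wild-type RNA was labelled with Cy3, and the Cy5 channel of the same arrays carried RNA of the transgenic line AhNF-YC-OE in the same 3 states. The labels do not say how many plants or lines entered a sample, nor which promoter drives the transgene. With 1 array for each state, no gene could be tested, no p-value is given, and rewatering cannot be told apart from the array it was measured on.

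Drought raises abscisic acid (ABA), which closes stomata and, through PYL receptors, PP2C phosphatases and SnRK2 kinases, turns on genes for late embryogenesis abundant (LEA) proteins, osmolytes and transporters. When water returns, ABA is broken down by CYP707A hydroxylases, proline is oxidised again by proline dehydrogenase, and leaves resume growth and photosynthesis. Transcripts of many drought genes are known to fall within hours of rewatering.

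Each array holds 30000 spots, of which 29234 are annotated to 26017 loci. Intensities were background-corrected and quantile-normalized, and the difference given is log2 of recovery minus log2 of water stress, so that 1 means 2-fold higher in recovery. A level is a normalized intensity in arbitrary units. It may be set against the level of the same spot on another array but not against that of another gene, because probes differ in brightness. The median raw wild-type intensity of a gene spot was 1399 in recovery and 1422 under water stress, or 25.5 and 26.3 times its local background. The normal growth array was brighter, at 4208 and 85.9 times the background. There, 5% of the empty spots exceeded a normalized intensity of 2735, against 334 on the recovery array and 354 on the water stress array, so low levels from normal growth carry little information. Where the dimmer of a gene's spots did not exceed that limit on its array, the fold is a lower bound ("at least") computed with the limit in place of the dim level, and no fold is given where neither spot exceeded it.

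The gene names are those of the deposited annotation, and spots that should measure the same transcript seldom behaved alike. Whether such spots carry the same probe is not given in the files. Among 1464 pairs of spots annotated to 1 transcript, the levels correlated with r = 0.07 across pairs and the changes with r = 0.07, both as descriptions of spots that share an array. Of 221 such pairs with at least 1 spot 2-fold apart, 8 had both spots 2-fold apart the same way. Spots of the 22 control features, 236 in all, did resemble each other in level. For them, 95.2% of the variance in level lay between features, but only 28% of the variance in the difference between recovery and water stress. The labelled tissue could not be told from other organs by its markers. On both arrays, 8 of 9 leaf markers exceeded 95% of the empty spots, as did 6 of 7 seed, 6 of 7 root and 5 of 6 flower markers. Summed over each list, leaf markers had 79970 units in recovery against 73515 under water stress, seed markers had 95593 against 89489, root markers 46637 against 58254 and flower markers 19801 against 16767. In what follows, a gene name therefore stands for the spot annotated to that gene, and whether the spot measured its transcript was not tested.

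The wild-type recovery leaves resembled the stressed leaves at most spots. Levels of 26013 loci correlated at r = 0.972 across loci, on a log2 scale and over probes shared by both arrays. Differences were within 1.5-fold at 75.5% of loci and within 2-fold at 93.0%. At least 2-fold higher in recovery were 877 loci, 3.37% of those measured, and 933 loci, 3.59%, were at least 2-fold lower. In 208 of the higher and 194 of the lower loci the dimmer spot did not exceed 95% of the empty spots. At 4-fold the counts were 57 higher and 42 lower. Around the limit, 519 loci had a difference between 1 and 1.1 in size and 700 one between 0.9 and 1, so membership of the 2-fold groups is not sharp. The shares hardly differed between the nuclear chromosomes, from 3.02% to 3.70% higher and from 3.22% to 3.94% lower.

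The direction of change depended on where a spot lay on the slide. In block rows 1 to 3 and 11 to 12, near the slide's ends, 5.27% of 12000 gene spots were at least 2-fold higher in recovery and 1.40% lower. In block rows 4 to 10, 2.39% of 17234 spots were higher and 5.53% lower. Median differences of whole block rows ran from -0.18 in row 5 to 0.21 in row 2. Rows 1 to 3 and 11 to 12 are those with a positive median, so this grouping follows the differences it summarises. Centring each of the 48 blocks on its own median left 665 loci higher (2.56%) and 598 lower (2.3%), of which 534 and 504 were among the loci above. The part of slide position in any single difference was not tested.

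**Figure D1:**
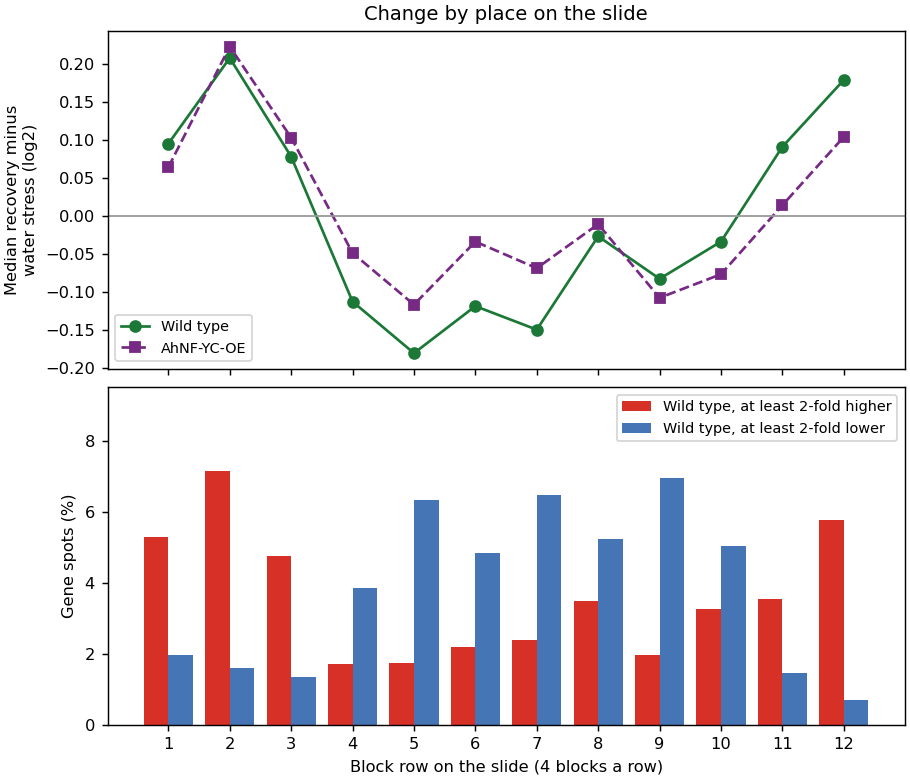
Upper panel: median log2 difference, recovery minus water stress, of the gene spots in each of the 12 block rows, for wild type (circles) and AhNF-YC-OE (squares). Lower panel: percent of wild-type gene spots at least 2-fold higher (red) or lower (blue) in recovery; higher spots prevail at both ends of the slide and lower spots in block rows 4 to 10.

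The processing also moved the balance of directions. Of the 1810 loci at least 2-fold apart, 48.5% were higher. With median scaling of the arrays the share was 25.1% (528 higher and 1573 lower), and the median of all loci stood at -0.17, against 0 after quantile normalization. The authors' deposited normalized intensities equal spot minus local background, and here the gene spots of each array were scaled to a common median. They thus differ in background correction and in scaling at once. With them the share was 20.3% (652 and 2556) and the median -0.16.

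A few spots changed far more than the rest. The spot of AT5G28570 read 30948 in recovery and 82.2 under water stress, AT4G24710 read 23508 and 75.7, and AT5G29602 read 19496 and 94.5, which are gains of at least 87.3-fold, 66.3-fold and 55.0-fold. On the water stress array these spots were as dim as empty ones. The Cy5 channel of the recovery array was bright at the same spots, with 34124, 23931 and 17330 in AhNF-YC-OE recovery against 88.2, 78.8 and 124 under water stress. By measured intensities 16 loci were at least 8-fold apart, 11 higher and 5 lower. In 9 of them the dimmer spot was within the range of empty spots. Among the higher ones, 4 lay in 2 rows of a single block (block row 12, block column 2), CYP71A14 among them. No function is given here for the 13 of these loci that have no gene name. FC2 (AT4G24740), which has a name, read 7756 in recovery and 476 under water stress (4.03), as a mean of 2 spots. It did not meet the naming rule and is not among the named genes below.

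In the opposite direction the spot of SIP1 (AT1G55740), named for seed imbibition and related to raffinose synthases, read 69.0 in recovery and 41717 under water stress, which is at least 125-fold lower in recovery. It read 29541 under normal growth. In AhNF-YC-OE it read 75.6 in recovery and 34978 under water stress.

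Among named genes that met the naming rule and changed most, those higher in recovery held no drought gene of the textbook set. CYP71A14 (AT5G24960), a cytochrome P450, read 548 in recovery and 62.8 under water stress, at least 1.55-fold higher; its place among the highest genes rests on the dim stress spot, which was no brighter than empty ones. SWI2 (AT1G03750), a Snf2-type helicase, read 1271 against 184, at least 3.59-fold higher. AGL78 (AT5G65330), a MADS-box transcription factor, read 9033 against 1323, a difference of 2.77. Of these 3, AGL78 alone was above the empty spots on both arrays. FRO1 (AT5G67590), a subunit of mitochondrial complex I needed for cold responses, read 11886 in recovery and 1809 under water stress (2.72). GTF2H2 (AT1G05055), a subunit of the TFIIH transcription and repair factor, read 7180 against 1186 (2.60). PIFI (AT3G15840), a chloroplast protein linked to the NDH route of electron flow, read 1002 against 174 (at least 2.83-fold higher). FRO1 and PIFI serve electron transport in different organelles, and neither belongs to the lists described further on. CF9 (AT1G59510) read 6909 in recovery and 1326 under water stress (2.38). TRFL8 (AT2G37025), a TRF-like DNA-binding protein, read 1304 against 271 (at least 3.68-fold higher). SR1 (AT5G01820), the protein kinase also called CIPK14, which works with calcium-binding CBL proteins, read 4845 against 1062 (2.19).

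The last 3 of the 12 highest named genes were PRT6, DET3 and AAE16. PRT6 (AT5G02310), the ubiquitin ligase of the N-degron pathway that senses oxygen through group VII ethylene response factors, read 6674 in recovery and 1533 under water stress (2.12). DET3 (AT1G12840), subunit C of the vacuolar proton ATPase, read 1382 against 326 (at least 3.9-fold higher). AAE16 (AT3G23790), an acyl-activating enzyme of the chloroplast, read 809 against 193 (at least 2.28-fold higher). All 12 were also brighter in AhNF-YC-OE recovery than under water stress.

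**Figure D2:**
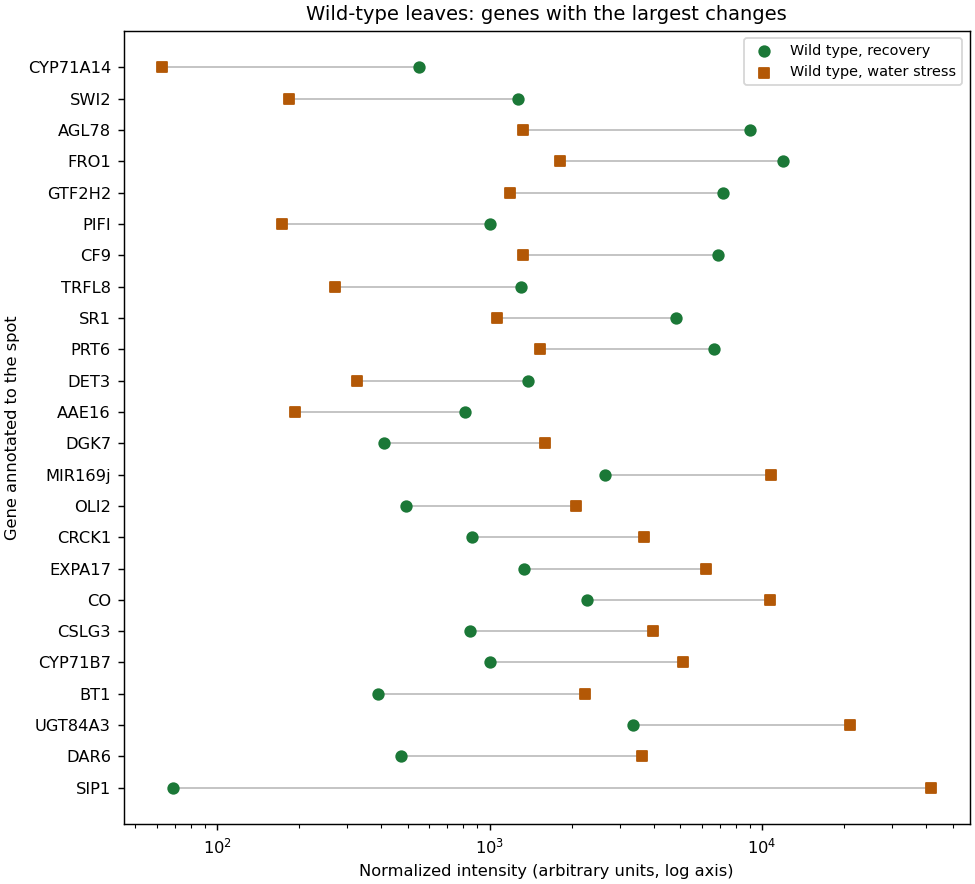
Normalized intensity (log axis) in wild-type recovery (circles) and wild-type water stress (squares), 1 array each. Shown are the 12 highest and the 12 lowest differences among named genes that met the naming rule. SIP1 has the widest gap, at 69.0 against 41717; stress levels under 354 and recovery levels under 334 are within the range of empty spots.

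The named genes that were lower in recovery were annotated to varied functions, and no shared theme was tested. DAR6 (AT5G66620), a relative of the organ size regulator DA1, read 475 in recovery and 3621 under water stress, a difference of -2.93. UGT84A3 (AT4G15490), a glucosyltransferase of phenylpropanoids, read 3348 against 21104 (-2.66). BT1 (AT5G63160), a BTB and TAZ domain protein, read 389 against 2230. Its recovery spot was not above the local background, so the loss is given as at least 5.74-fold. CYP71B7 (AT1G13110), a cytochrome P450, read 1007 in recovery and 5123 under water stress (-2.35). CSLG3 (AT4G23990), a cellulose synthase-like protein, read 847 against 3983 (-2.23). CO (AT5G15840), the CONSTANS protein that links day length to flowering, read 2282 against 10701 (-2.23). CO and CYP71B7 had their highest levels under normal growth, at 21218 and 25011. EXPA17 (AT4G01630), a wall-loosening expansin, read 1337 in recovery and 6248 under water stress (-2.22). CRCK1 (AT5G58940), a calmodulin-binding receptor-like cytoplasmic kinase, read 863 against 3673 (-2.09). OLI2 (AT5G55920), a nucleolar protein of ribosome assembly, read 494 against 2067 (-2.06). The remaining pair were MIR169j and DGK7. MIR169j (AT3G26813), a precursor of the miR169 family that targets mRNAs of NF-YA subunits, read 2645 in recovery and 10819 under water stress (-2.03). DGK7 (AT4G30340), a diacylglycerol kinase, read 409 against 1598 (-1.97). Together with SIP1 all 12 were also dimmer in AhNF-YC-OE recovery than under water stress.

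The 15 drought, ABA and control genes named whatever their value all stayed within 2-fold between the wild-type samples. RD29A, the drought marker with DRE and ABRE elements in its promoter, read 34577 in recovery and 31625 under water stress, a difference of 0.13. RD29B, its ABA-responsive neighbour, read 3965 against 3874 (0.03). RAB18, an ABA-induced dehydrin, read 15831 against 26625 (-0.75), the largest difference of the 15 and a value of -0.28 once blocks were centred. The cold and drought gene COR15A read 2863 in recovery and 2533 under water stress (0.18). RD20, a caleosin, read 26060 against 28655 (-0.14). RD26, a NAC transcription factor, read 23710 against 20678 (0.20). Recovery and stress levels of these 3 genes lay close together. The HD-Zip factor HB7 read 752 in recovery and 618 under water stress (0.28). DREB2A, which binds the DRE element, read 21723 against 26745 (-0.30). Under normal growth, RD29A read 21324, RD29B 2685, RAB18 22944 and COR15A 5709. RD20 read 29265 there, RD26 13225, HB7 848 and DREB2A 31850. The RD29B and HB7 levels were within the range of empty spots on that array. Whether water stress had raised these genes was not tested.

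The genes of ABA and proline turnover among the 15 were within 2-fold as well. NCED3, the drought-induced enzyme that cleaves carotenoids on the way to ABA, read 8309 in recovery and 9564 under water stress (-0.20). CYP707A1 read 1127 against 985 (0.19) and CYP707A3, known for its induction by rehydration, read 4802 against 4202 (0.19). HAI1, a PP2C phosphatase that ABA induces, read 4046 against 5298 (-0.39). In proline metabolism, P5CS1, the synthetic enzyme, read 12419 in recovery and 12715 under water stress (-0.03). ERD5, the proline dehydrogenase ProDH1 that rehydration is known to induce, read 9990 against 8262 (0.27). The small Rubisco subunit RBCS1A read 5615 against 5420 (0.05). Under normal growth, NCED3 read 6448, CYP707A1 1818, CYP707A3 9623 and HAI1 2335. P5CS1 read 16879 there, ERD5 12218.5 and RBCS1A 2540. The CYP707A1, HAI1 and RBCS1A levels were within the range of empty spots on that array. Where a locus had several spots these did not settle its value. The 3 spots of COR15A gave differences from -0.27 to 0.63, those of CYP707A1 from -0.28 to 0.67 and those of CYP707A3 from -0.56 to 0.28. The 3 spots of RBCS1A ran from -0.61 to 0.05. The other spot of RD26 read 560 in recovery and 263 under water stress, a measured difference of 1.09. Its stress level was within the range of empty spots. Of the 44 listed or named loci with several spots, 26 had spots of both signs.

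**Figure D3:**
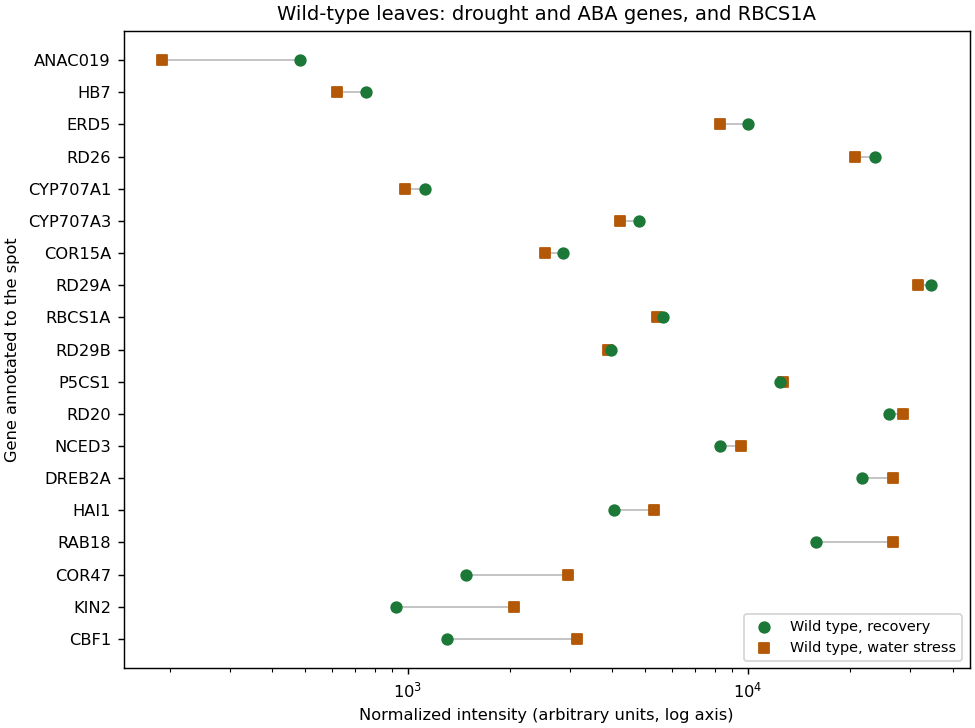
Normalized intensity (log axis) in wild-type recovery (circles) and wild-type water stress (squares) of the 15 genes named whatever their value. COR47, KIN2, ANAC019 and CBF1, at least 2-fold apart by measured value, are shown as well. For most of the 15 the symbols nearly touch.

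Across 19 functional lists, 5 of 325 measured genes were at least 2-fold higher in recovery and 14 at least 2-fold lower, or 1.54% and 4.31%, beside 3.37% and 3.59% of all genes. The dimmer spot was within the range of empty spots in 2 of the 5 and in 5 of the 14. Their median difference was -0.05, with 150 positive and 175 negative, against a median of 0 over all genes. In 17 of the 19 lists the median lay within 0.25 of 0. All list counts use the measured value of a locus, also where its fold is given below as a bound. Single spots passed 2-fold where the locus value did not, as at OPR3 (-1.09), PROT2 (-1.54), LHCB4.2 (-1.19), MYB96 (-1.02) and LKP2 (1.26).

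The light reactions had the median farthest from 0. Of 31 genes of the photosystems, antennae and electron carriers, 23 were lower in recovery and 8 higher, with a median of -0.44 against 0 over all genes. PSBP1, an extrinsic protein of the oxygen-evolving complex, read 7366 in recovery and 17969 under water stress (-1.29). PSBQ2, another protein of that complex, read 210 against 423 (at least 1.27-fold lower). These were the 2 members past 2-fold by measured value. LHCA3, an antenna protein of photosystem I, read 621 in recovery and 1239 under water stress, a difference just short of 2-fold. PSAN, PSAK and PSAE1, subunits of photosystem I, had differences of -0.94, -0.90 and -0.89. The antenna proteins LHCB6 and LHCB4.1 had -0.85 and -0.73. At the upper end, PSBO2 differed by 0.40. Of this list, 67.7% of the members lay in block rows 4 to 10, where lower spots prevailed, against 58.9% of all genes. Centred on blocks, the list's median was -0.22, PSBP1 (-0.93) and PSBQ2 (-0.57) were within 2-fold, and PSAN (-1.18) was the 1 member past it. Over genes above the median intensity the list's median was -0.20. In AhNF-YC-OE the median was -0.43, with 7 members at least 2-fold lower.

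In the Calvin cycle 1 of 18 genes was 2-fold apart and the median was 0.07. RBCS2B, a small subunit of Rubisco, read 268 in recovery and 956 under water stress (at least 2.86-fold lower). RBCS3B, from the same gene family, read 1449 against 2841 (-0.97). RBCS1A differed by 0.05 at its brightest transcript, but its 3 spots ran from -0.61 to 0.05, with a mean of -0.28.

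Genes of ABA signalling had a median of 0.02 over 29 members, and 3 were at least 2-fold lower in recovery by measured value. SNRK2.1, a kinase of the osmotic stress family, read 402 in recovery and 1034 under water stress (-1.36), or -0.96 once blocks were centred. The receptor PYL2 read 239 against 615 (at least 1.84-fold lower). The receptor PYL5 read 101 against 209, with neither spot above the empty ones, so no fold is given for it. None of the 14 genes of ABA turnover was 2-fold apart. ABA1, the zeaxanthin epoxidase early in the pathway, came closest, with 1962 in recovery and 3709 under water stress (-0.92).

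Dehydrins and other LEA genes had 1 of 13 members 2-fold apart. COR47, a dehydrin, read 1480 in recovery and 2969 under water stress, just past 2-fold, and block centring brought the difference to -0.91. Among 22 further effectors of drought and ABA, KIN2, a small protein of cold and ABA responses, read 927 against 2049 (-1.14). RS5, which makes raffinose, read 5880 against 11569 (-0.98). The cysteine protease RD21A read 600 against 303, a measured difference of 0.98 with a stress spot no brighter than empty ones. The list's median was -0.04. Of 27 stress transcription factors, ANAC019 was higher, with 481 in recovery and 190 under water stress (at least 1.36-fold). Its measured difference of 1.34 became 0.50 with median scaling and 0.60 with the authors' values. CBF1, an activator of cold genes, was lower, with 1306 against 3143 (-1.27, or -0.97 once blocks were centred).

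Proline genes had none of 12 members past 2-fold by locus value. The 3 spots of PROT2 ran from -1.54 to 0.45, with 0.45 used. P5CS2 read 1456 in recovery and 739 under water stress (0.98), and P5CDH, the second enzyme of proline breakdown, read 2051 against 3821 (-0.90). Among 23 aquaporins, channels for water in the plasma membrane and tonoplast, the median was 0.04. PIP2;7 was higher, with 2074 in recovery and 977 under water stress (1.09, or 0.83 once blocks were centred), and PIP2;3 was lower, with 413 against 1024 (-1.31). The antioxidant list had none of 18 members past 2-fold. Its largest differences were 0.98 for the catalase CAT1 and 0.94 for the ascorbate peroxidase APX1, whose other spot gave -0.74.

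Growth genes moved singly. In the cell cycle list, CYCB1;4, a mitotic cyclin, read 20996 in recovery and 8579 under water stress (1.29), against a list median of -0.16 over 18 genes. Its level under normal growth was 1694, which is within the range of empty spots on that array. Of 13 wall expansion genes, EXPA4 was higher, with 700 in recovery and 278 under water stress (at least 1.98-fold). Its measured difference of 1.33 became 0.60 with median scaling and 0.70 with the authors' values. EXPA3 was lower, with 3398 against 8375 (-1.30, or -0.92 once blocks were centred), and so was EXPA1, with 1679 against 4054 (-1.27). Expansins loosen cell walls, and the members here went both ways around a median of 0.00. The other spot of EXPA1 had a measured difference of 0.02 but was no brighter than empty ones on either array. The mean of the EXPA1 spots differed by -0.63. ARR6, a cytokinin-induced type-A response regulator, read 141 in recovery and 441 under water stress (at least 1.32-fold lower), and the 10 genes of its list had a median of -0.16.

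Time of day and temperature lists gave single genes as well. ELF3, of the evening complex of the clock, read 396 in recovery and 974 under water stress (-1.30). The morning factor CCA1 read 964 against 498 (0.95). The other clock genes were within 2-fold by locus value, and the median of the 16 was 0.19. HSP21, a small heat shock protein of the chloroplast, read 1598 in recovery and 602 under water stress (1.41), the only one of 14 heat shock genes past 2-fold. By locus value, no member of the Aux/IAA, senescence, jasmonate or salicylate defence lists was 2-fold apart. Their medians were -0.24, -0.27, -0.15 and -0.15 over 14, 11, 11 and 11 genes. The 3 spots of OPR3 ran from -1.09 to -0.22, with -0.61 used. The senescence regulator ORE1 read 233 in recovery and 399 under water stress, a measured difference of -0.78 with a recovery spot no brighter than empty ones. LOX2, the chloroplast lipoxygenase of jasmonate synthesis, read 2286 against 4202 (-0.88).

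Groups taken from words of the annotation are set beside the 3.37% of all genes at least 2-fold higher and 3.59% lower. The shares were 2.99% and 1.49% for WRKY factors, 3.23% and 3.23% for heat shock genes and 2.56% and 0% for cyclins. For mitochondrial genome loci they were 3.12% and 3.12%. Centred on blocks, 1 WRKY gene was higher and 2 lower, and 1 heat shock gene was higher and 4 lower, beside 2.56% and 2.3% of all genes. Of 67 WRKY transcription factors, 2 were at least 2-fold higher, WRKY64 (5466 in recovery and 2207 under water stress) and WRKY2 (2359 against 1005, but within 2-fold once blocks were centred, at 0.94), and 1 was lower, WRKY51 (1011 against 2569). Of 62 genes with heat shock in their annotation, 2 were higher and 2 lower by measured value. HSFA9, a heat stress factor of seeds, read 556 in recovery and 235 under water stress, at least 1.57-fold higher. It was under 2-fold in 5 of the 12 alternatives, down to 0.45 with median scaling. HSFA6B differed by -1.23, and the mitochondrial chaperonin HSP60-3A had the largest difference, with 1998 in recovery and 6703 under water stress (-1.75). Of 39 cyclins, CYCB1;4 alone was 2-fold apart. Of 32 mitochondrial genome loci, ATMG00990 was at least 2.26-fold higher in recovery and ATMG01140 differed by -1.48. The measured difference of ATMG00990 was 0.95 with median scaling. The single chloroplast genome locus, ATCG00850, had a measured difference of -0.90, with a recovery spot no brighter than empty ones. None of 4 ribosomal protein genes passed 2-fold. Among markers of other organs, the oleosin OLEO1 of seeds (806 in recovery and 378 under water stress) and the flower gene AMS (4534 against 2148) were at least 2-fold higher, and the flower gene SEP3 (3174 against 7242) was lower. Centred on blocks, OLEO1 (0.92), AMS (0.67) and SEP3 (-0.72) were within 2-fold, and OLEO1 was so in 5 of the 12 alternatives, with 0.52 under median scaling. No root marker was 2-fold apart.

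**Figure D4:**
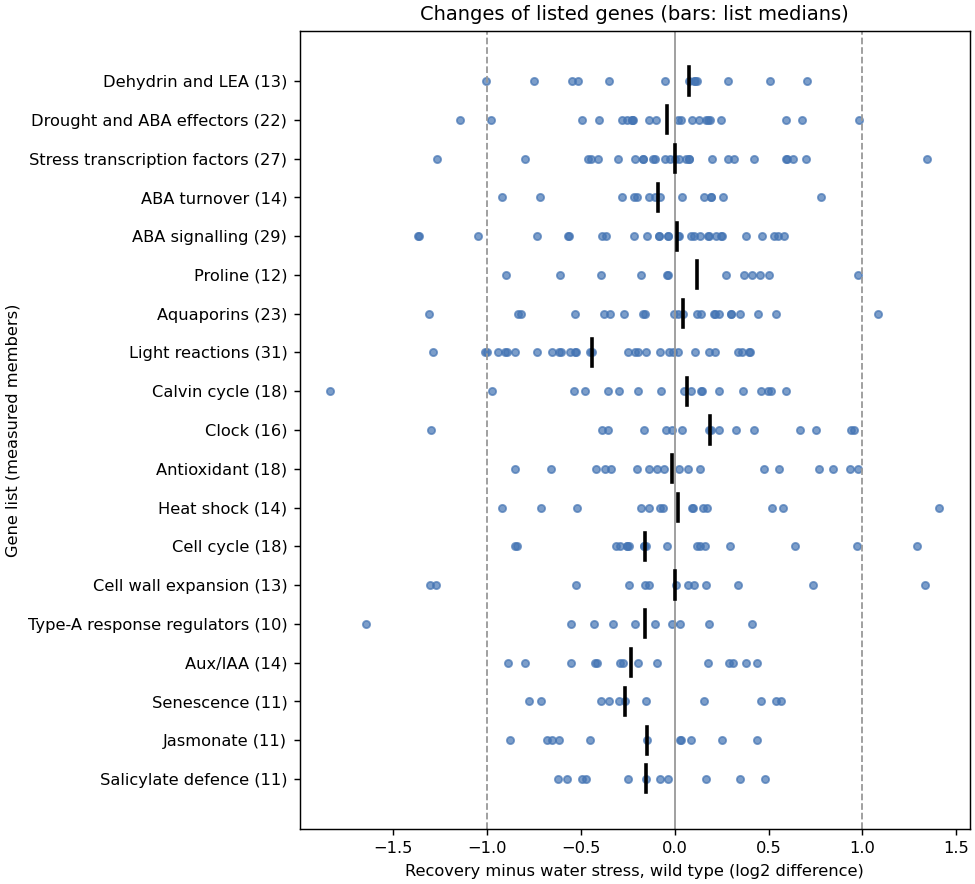
Log2 difference, wild-type recovery minus water stress, of each measured member (points) of the 19 lists, with the list median as a black bar and the number of members in brackets. Dashed lines mark 2-fold; the light reactions have the lowest median, at -0.44.

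The changes in wild type were close to those in AhNF-YC-OE, measured in the other channel of the same spots. Across 26003 loci the differences in both genotypes correlated at r = 0.891, and at 0.88 after block centring, as a description of loci that share slides and spots. In AhNF-YC-OE 1008 loci (3.88%) were at least 2-fold higher in recovery and 1164 (4.48%) lower. Of the 877 loci higher in wild type, 623 (71.0%) were at least 2-fold higher in AhNF-YC-OE, and these were 61.8% of the transgenic count. For lower loci the shared number was 735, or 78.8% of the wild-type and 63.1% of the transgenic count. No locus was 2-fold apart in opposite directions. What the genotypes share and what the arrays share cannot be told apart in this overlap.

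The measured wild-type difference exceeded the transgenic one at least 2-fold at 57 loci (0.219%) and fell short of it at 99 (0.381%), and for 95.2% of loci the differences of both genotypes were within 1.5-fold of each other. The 156 loci became 33 among genes brighter than 95% of empty spots and 0 above the median intensity. Each filter was applied to either channel by that channel's own values. On the Cy5 channel, 5% of the empty spots exceeded 183 in recovery and 356 under water stress, and the genes singled out between genotypes sat near those limits. HYL1, a double-stranded RNA-binding protein of microRNA processing, read 729 in wild-type recovery and 179 under water stress, at least 2.06-fold higher, while both AhNF-YC-OE spots, at 93.0 and 79.7, were no brighter than empty ones. EMB1290, named for an embryo-defective mutant, was at least 2.19-fold higher in wild-type recovery, and OFP15, an OVATE family repressor, at least 2.1-fold. Both were under 2-fold with median scaling, at 0.96 and 0.94. OFP15 and AAE16 were among the largest genotype differences that met the naming rule, yet their wild-type and transgenic differences were less than 2-fold apart. HMGS, which acts early in the mevalonate pathway, was the bright member, with 3368 in wild-type recovery and 1767 under water stress, and differed by 0.93 in wild-type leaves and by -0.26 in the transgenic line. CYP71A14 completed the 6 genes chosen on this side.

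On the other side, the 5 genes with a lower level in wild-type recovery had recovery spots no brighter than empty ones, and none of their AhNF-YC-OE spots exceeded the empty limit. MAPKKK7, a protein kinase, read 206 in wild-type recovery and 624 under water stress (at least 1.87-fold lower), and 85.8 and 102 in AhNF-YC-OE. GTG1, a G protein-like membrane protein proposed to bind ABA, read 241 against 636 in wild type (at least 1.91-fold lower), and 115 against 117 in AhNF-YC-OE. For MGE1, a GrpE-type cochaperone of mitochondria, the autophagy protein ATG8C and the microRNA locus MIR395c the bounds in wild type were 1.39-fold, 1.28-fold and 1.45-fold. Whether wild type and AhNF-YC-OE differ cannot be read from spots at that level. The mitochondrial malate dehydrogenase mMDH1 was brighter, with 1680 in wild-type recovery and 873 under water stress (0.94), and in AhNF-YC-OE it read 932 in recovery and 204 under water stress, the last within the range of empty spots.

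**Figure D5:**
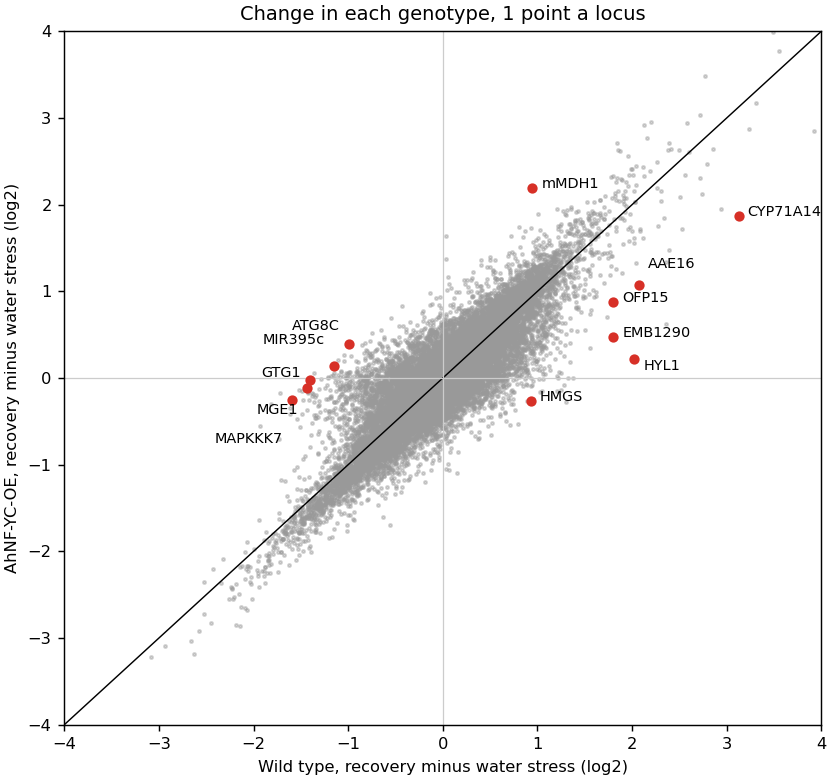
Log2 difference, recovery minus water stress, in wild type (x axis) and AhNF-YC-OE (y axis), 1 grey point a locus, with 9 loci beyond 4 in size outside the axes. Red points are the named genes that differ most between genotypes, most of them with 1 or more spots within the range of empty spots; the black line marks equal differences.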

How the data were processed

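Members and lists were chosen with earlier results of these data known. The deposited scanner intensity values are mean pixel intensities of each spot and its local background with the background SD, per the file headers. No source used here names the scanner, its software or the authors' normalization method. The deposited normalized Cy3 intensity equalled spot minus local background within 1 unit for all transcripts with a single spot, on each array. The annotation names TAIR release 7 (and TIGR release 5) for its locus codes, and 25814 loci were found in a RefSeq table of names, 10203 of them with a gene name.

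Background was corrected by normexp with an offset of 50, and the wild-type channels of the 3 arrays were quantile-normalized on gene spots (limma 3.58.1, R 4.3.3), as were the AhNF-YC-OE channels. Spots of a transcript were averaged, and the brightest transcript stood for a locus. A locus counted when its brighter side exceeded its local background by 2 SD, and 26013 did. Tables used Python 3.11.15, numpy 2.4.6 and pandas 2.3.3. The steps were tested on simulated data.

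The 12 highest and 12 lowest named genes were taken among loci brighter than 95% of empty spots, with spots of 1 sign, whose difference also reached 1.5-fold in that direction with median scaling and with uncorrected background. Loci without a name were passed over, 31 higher and 32 lower. Up to 4 members of each list at least 2-fold apart, 15 genes whatever their value, and the 6 largest genotype differences each way were also named; other list members were chosen after their values were seen. There were 12 alternatives. Promoter and probe sequences were not used here, so planned counts of promoter motifs were not made. No dyes were exchanged; a dye bias constant for a spot cancels between arrays. The label fields name Cy dyes and the labelling protocol Alexa dyes. Depth has no meaning for an array, and the number of arrays, 1 a state, limits the precision.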

Additional observations from a re-analysis of the deposited data

Results flagged for a closer look

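For 6 named genes the wild-type and the AhNF-YC-OE difference had opposite signs, which singled them out; whether the genotypes differ was not tested. These were RD29A (0.13 in wild-type leaves, -0.29 in AhNF-YC-OE leaves), COR15A (0.18 and -0.22), RBCS1A (0.05 and -0.44), HMGS (0.93 and -0.26), ATG8C (-1.0 and 0.39) and MIR395c (-1.15 and 0.14). The first 3 are within 1.5-fold in both genotypes. For ATG8C and MIR395c, the wild-type recovery spots and both AhNF-YC-OE spots were no brighter than 95% of empty spots. On the recovery array, 5 of the 510 empty spots were brighter in the wild-type channel than the median gene spot, and on the water stress array 7 were. Between those arrays, 10 empty spots (1.96%) were 2-fold apart, 4 of them higher and 6 lower in recovery.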

How the results depend on the processing

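The 877 loci higher in wild-type recovery became 528 with median scaling and 337 above the median intensity. The 933 lower loci became 1573 with median scaling, 598 centred on blocks, 377 above the median intensity and 2556 with the authors' values. In AhNF-YC-OE the 2172 loci at least 2-fold apart became 3346 with plain background subtraction and 1052 above the median intensity. The 156 loci at least 2-fold apart between the genotypes became 719 with plain subtraction, 478 with median scaling and 92 with cyclic loess. Quantile normalization over the 2 arrays alone gave 40. There were 33 among genes brighter than 95% of empty spots and 0 above the median intensity, with each channel filtered separately. The filters test fewer genes; the cause of the other shifts was not tested. Of 61 named genes 2-fold apart by measured value, 39 were so in each of the 12 alternatives that gave them a value. Of 685 values, 637 stayed 2-fold apart the same way, 48 fell under 2-fold and none changed sign. Part of this was fixed in advance. The filters repeat the main value of each gene they keep, and averaging all spots changes nothing at loci with 1 spot. The 12 highest and 12 lowest genes had to reach 1.5-fold with median scaling and with uncorrected background. The light reaction median, recomputed after it had been seen, was -0.22 centred on blocks and -0.20 above the median intensity. No paired analysis was possible because each state has 1 array, and no replicate could be left out.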

Other observations

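With loci ranked by intensity into 5 equal parts from dim to bright, the numbers at least 2-fold higher in wild-type recovery were 155, 240, 297, 181 and 4, and the numbers lower were 162, 220, 365, 179 and 7. The 22 control features, each printed several times, had mean differences from -0.37 to 0.61 between recovery and water stress, and none reached 2-fold. Among spots of a single control feature the SD of the difference ran from 0.17 to 0.78, with a median of 0.44, on the log2 scale. That spread between like spots of a slide does not hold the spread between plants.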
